A study of Mus musculus with 9 samples.

Results

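The 49 genes described here are a set of E2F factors, pocket proteins, DNA replication genes and mitosis genes, chosen by name from the 21853 protein-coding genes that GENCODE M21 places on mouse chromosomes 1 to 19, X and Y. They fall into 6 groups by role, with 7 E2F and pocket proteins, 11 origin licensing genes, 9 replisome genes, 4 genes of nucleotide synthesis, 6 G1/S cyclins and kinases and 12 G2/M and mitosis genes. Open chromatin had been mapped by ATAC-seq in primary mouse embryonic fibroblasts (MEFs) at low passage, in 3 libraries from wild type (WT) cells and 3 from Anp32e null cells, which lack the histone chaperone that takes the variant histone H2A.Z off chromatin. A further library came from Anp32e null cells given non-targeting (NT) siRNA and 2 came from Anp32e null cells given a pool of siRNAs against H2A.Z, so the 3 groups other than WT all carry the null genotype. The libraries of a group had been merged before peaks were called, which leaves 1 peak list per group, no replicate error and no test between groups. The lists address whether accessibility changes when ANP32E is lost and whether it changes again when H2A.Z is reduced in null cells. The siRNA cells were transfected and the others were not, and a peak list cannot show how far H2A.Z was reduced.

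The E2F factors switch on the genes that a cell needs to copy its DNA, and the pocket proteins RB1 and p107 hold them in check until cyclin-dependent kinases act in late G1. The MCM helicase is loaded at origins with the help of ORC, CDC6 and CDT1, and CDC45 and the GINS complex then turn it into the moving replisome. Later genes of the cycle, such as those for cyclin B and the Aurora kinases, can be held down by the DREAM complex, which binds the cell cycle homology region (CHR) of their promoters. Cultured embryonic fibroblasts divide, so promoters of all these classes can be in use in the same plate.

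The lists held 84040 peaks in WT, 82567 in null, 89272 with NT siRNA and 108409 with H2A.Z siRNA. Their genome-wide background, the number of fragments expected at any position, was 8.85, 5.12, 3.88 and 17.8 fragments in the same order. The H2A.Z siRNA list was therefore the deepest and the NT siRNA list the shallowest, and peak number and width can both move with depth. The fold of a peak is its fragment pileup at the summit over the local background, with 1 added to each, and its percentile is the share of peaks in the same list with a lower or equal fold. Fibroblast markers had a TSS peak at 10 of 12 genes in WT and 11 of 12 in each other list, with Lum lacking one in all 4, whereas the 4 blood markers had none in any list. Of the other marker lists, a TSS peak was present in all lists at 1 of 4 pluripotency, 1 of 3 endothelial, 3 of 3 epithelial and 1 of 3 neural genes, and at a muscle gene only in null, at 1 of 2.

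Because the promoters are the items compared, short stretches upstream of 8 of them are given first. A promoter was searched from 200 bases before the reference transcription start site (TSS) up to it, on both strands, for the E2F words TTTCCCGC, TTTGGCGC, TTTCGCGC and TTTGCCGC and for the CHR words TTTGAA and TTCGAA. The stretches below were read from the RefSeq copy of GRCm38, the build the files use, 5′ to 3′ along the strand of the gene, and the capitals mark the match. They are a selection from the members that stood at the ends of a comparison or of their role group, or whose summit moved most, and that hold an E2F or a CHR word. Mcm2, Rfc3, Ccnd2, Aurkb and Cdc25c also meet this and are not printed.
E2f2, chr4:136172302-136172331, plus strand, intergenic: gcggcatatagTTTGGCGCtaaaaaaaaaa
Rbl1, chr2:157204534-157204563, minus strand, in a noncoding exon of an Rbl1 transcript: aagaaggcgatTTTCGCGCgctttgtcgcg
Cdc6, chr11:98908002-98908031, plus strand, in an intron of another Cdc6 transcript: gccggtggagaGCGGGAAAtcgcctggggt
Mcm5, chr8:75109550-75109568, plus strand, intergenic: ggaggctggttTTTCCCGC
Gins1, chr2:150909574-150909593, plus strand, in an intron of another Gins1 transcript: ggttgagcctaTTTGGCGCc
Cdc25a, chr9:109875501-109875530, plus strand, intergenic: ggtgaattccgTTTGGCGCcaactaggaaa
Cdc20, chr4:118437353-118437373, minus strand, intergenic: agacagttgggtTTTGAAgga
Mki67, chr7:135716469-135716498, minus strand, intergenic: gaaTTTGAAccgccgttttggTTTGAAtcg
In Cdc6 the word lies on the opposite strand, so that the printed letters are its reverse complement, and the stretch is downstream of the TSS of transcript Cdc6-201, the start nearest the summit of the Cdc6 peak in all 4 lists. Mki67, which encodes the proliferation antigen Ki-67, holds the CHR word at 2 positions within this stretch. For Rbl1 the exon label marks any overlap with the stretch, whose last base, 157204534, is the TSS of transcript Rbl1-204. The E2F word itself, at 157204545 to 157204552, lies upstream of that TSS.

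An E2F word was found upstream of 12 of 49 members, or 24.5%, against 1.93% of all protein-coding genes and 2.82% of the protein-coding genes with a TSS peak in all 4 lists. The 12 were Mcm4, Mcm5, Mcm6, Cdc6, Orc1, Gins1, E2f2, E2f8, Rbl1, Cdk1, Cdk2 and Cdc25a. A CHR word stood upstream of 11 members, or 22.4%, against 12.3% of all genes and 8.29% of those with a peak in all 4 lists. Among these were the G2/M and mitosis genes Aurka, Aurkb, Ccnb2, Cdc20, Cdc25c, Cdk1, Mki67 and Top2a. The rest were Mcm2, Rfc3 and Ccnd2, from other role groups. The NF-Y word CCAAT was present in 63.3% of members, 30.9% of all genes and 31.8% of those with a peak in all 4 lists, and the SP1 word GGGCGG, which can share bases with an E2F word, in 69.4%, 39.7% and 58.2%. As the members were picked for their part in the E2F program, these shares describe the list, and a promoter without these letters may still be bound by the factor. GC content within 500 bases of the TSS had a median of 57.4% for members and 59.6% for genes with a peak in all 4 lists.

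Each of the 49 members had a peak within 1 kb of its reference TSS in all 4 lists. A TSS peak was present for 62.4% of all protein-coding genes in WT, 62.2% in null, 62.2% with NT siRNA, 64.0% with H2A.Z siRNA and 59.2% in all 4 lists. No member gained or lost promoter accessibility as a called peak, either with loss of ANP32E or with H2A.Z siRNA. The result was the same for 58 further genes of the pathway that are not members, among them Foxm1, Mybl2, Cdc7, Lig1 and Kif11, which all had a TSS peak in all 4 lists.

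Member promoters ranked high. Their median percentile was 90.2 in WT against 81.5 for all protein-coding TSS peaks, 87.0 against 79.6 in null, 83.4 against 78.7 with NT siRNA and 87.6 against 80.7 with H2A.Z siRNA. In WT, 25 of 49 members stood at the 90th percentile or above, a share of 51.0% against 30.5% of all protein-coding TSS peaks. In the NT siRNA list it was 15 of 49, or 30.6% against 27.0%. The 58 further pathway genes also ranked high, with medians of 89.5, 89.995, 88.3 and 90.1 in WT, null, NT siRNA and H2A.Z siRNA, and under NT siRNA 43.1% of them stood at the 90th percentile or above, more than the 30.6% of members. The lead of the members over all promoters was thus smallest in the NT siRNA list. By −log10 p the median of members was 92.0, 93.3, 93.9 and 94.6 in the same order of lists, with no lower value under NT siRNA. The median of all promoters was not taken on that scale, so the lead cannot be compared there. Ranked among protein-coding TSS peaks alone, the median of members was 70.04, 65.2, 58.9 and 64.6, again lowest under NT siRNA.

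**Figure D1:**
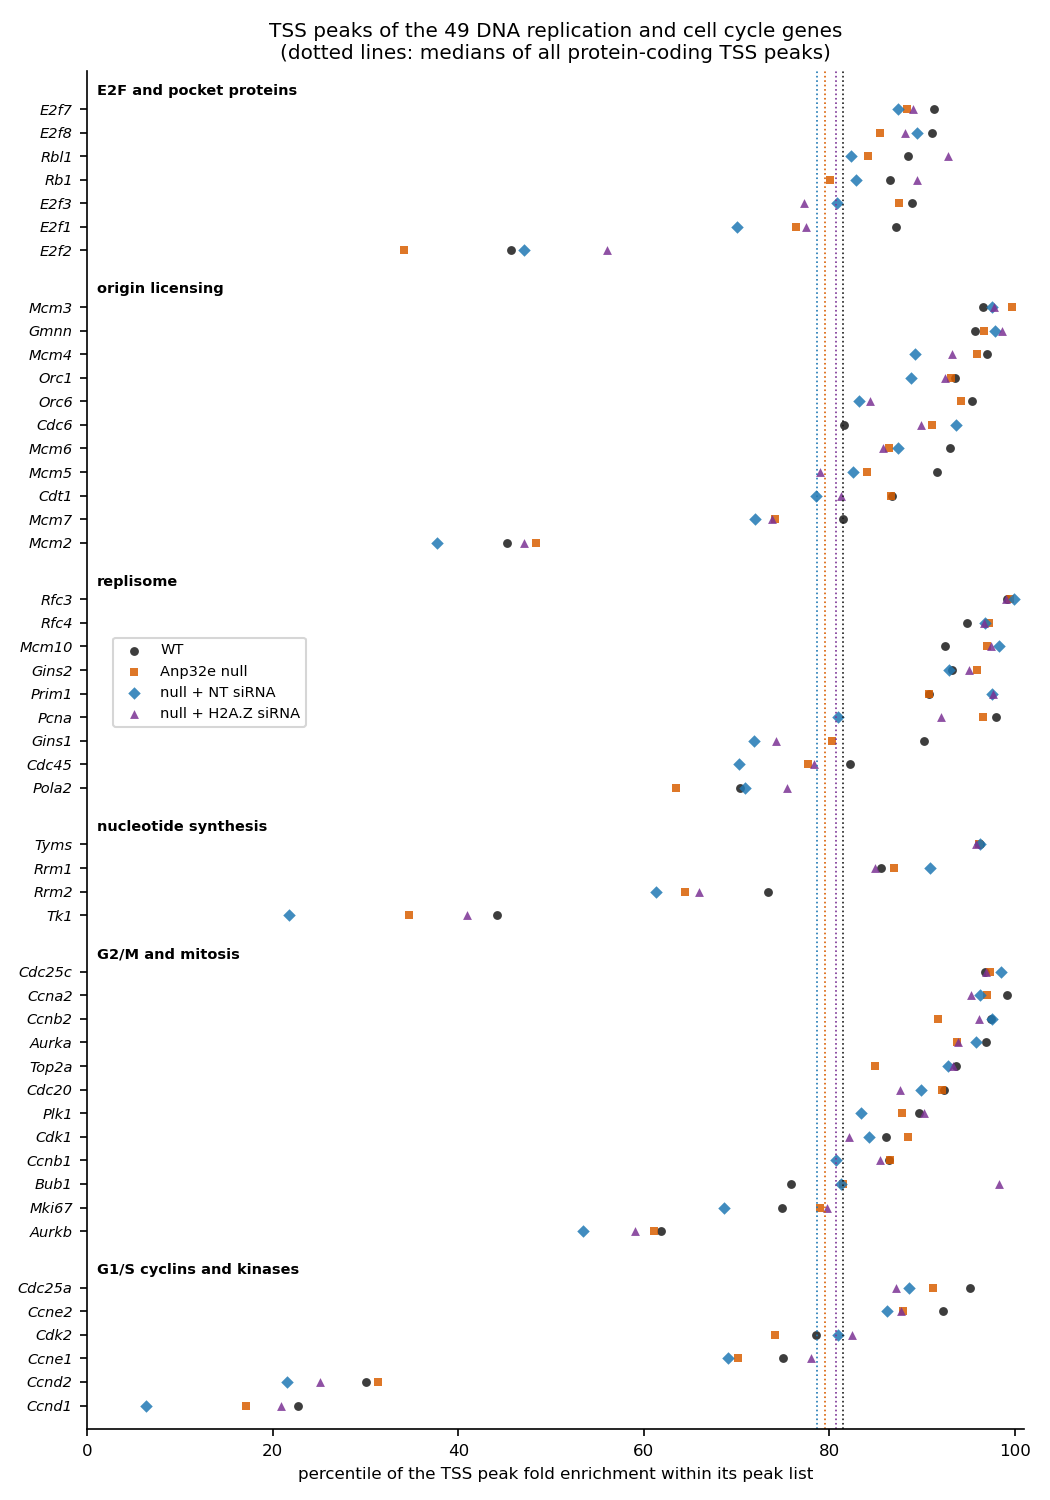
Percentile of the TSS peak's fold enrichment within its own list (x axis) for each of the 49 members (rows, grouped by role), with 1 symbol per peak list and dotted lines at the medians of all protein-coding TSS peaks. Most members sit right of those medians, and Ccnd1, Ccnd2, Tk1, Mcm2 and E2f2 sit far to the left in all 4 lists.

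Among the E2F and pocket proteins, all 7 stood at a lower percentile in null than in WT, where 36.4% of all protein-coding TSS peaks stood higher. In the other role groups a higher percentile in null was seen for 4 of 11 origin licensing, 5 of 9 replisome, 1 of 4 nucleotide synthesis, 5 of 12 G2/M and 1 of 6 G1/S genes, and the E2F group was the most one-sided of these 6. By fragments, relative to other promoters, E2f7 and E2f3 were nonetheless higher in null, at 1.24-fold (95% exact interval 1.10 to 1.402, counting error only) and 1.19-fold (1.02 to 1.396). E2f8 at 0.906-fold (0.769 to 1.07), Rb1 at 0.796-fold (0.624 to 1.01) and Rbl1 at 0.867-fold (0.643 to 1.16) were within counting error of no difference. E2f1, an activator of the G1/S program, lay at percentile 87.2 in WT, 76.4 in null, 70.02 with NT siRNA and 77.5 with H2A.Z siRNA. E2f2, a close relative, lay at 45.7, 34.1, 47.0 and 56.0, and had the lowest fold of the group in each list. These were the only members whose percentile was lower by 10 points or more in null, at a change of −10.8 for E2f1 and −11.6 for E2f2, against 11.6% of all protein-coding TSS peaks lower by at least 10 points. Ranked by −log10 p instead of fold, the change at E2f1 was −1.91 points and that at E2f2 −16.1. E2f3 lay at 88.9, 87.5, 80.9 and 77.3, lower under H2A.Z siRNA than in any other list. The repressors E2f7 and E2f8 ranged from 87.4 to 91.3 and from 85.5 to 91.1, so both kept within 6 points. Rb1, the retinoblastoma gene, lay at 86.5, 80.1, 82.9 and 89.4, and Rbl1, which encodes p107, at 88.5, 84.2, 82.3 and 92.8. In lists of equal length, each trimmed to its 82567 peaks of highest fold, Rb1 lay at 86.1 with H2A.Z siRNA and 86.3 in WT, so its order depends on list length, while Rbl1 was still highest with H2A.Z siRNA, at 90.6 against 88.3 in WT.

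The fragments behind the E2f1 and E2f2 percentiles differ. At the E2f1 summit 348 fragments were piled up in WT (95% Poisson interval 312 to 387, counting error only) and 295 in null (262 to 331). Relative to the genome-wide background of its list this was 39.3 in WT and 57.7 in null, and the local background around E2f1 was 4.24 times the genome-wide level in WT and 6.37 times in null. For all members the median local background was 2.55 times the genome-wide level in WT and 3.70 times in null, so a higher local background was not particular to E2f1. Its fragments per unit of depth, relative to other promoters, were 0.936-fold those in WT (95% exact interval 0.799 to 1.10). At E2f2 there were 57 fragments in WT (43.2 to 73.9) and 34 in null (23.6 to 47.5), which is 6.44 and 6.65 times the genome-wide background. Across all protein-coding TSS peaks the same ratio was higher in null than in WT by a median of 0.65 on the log2 scale, a difference that the E2f2 ratios do not show, though with so few fragments they are within counting error of it.

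Origin licensing genes held some of the members' highest percentiles and one of the lowest. Mcm3, a subunit of the MCM helicase, lay at percentile 96.6 in WT, 99.7 in null, 97.6 with NT siRNA and 97.8 with H2A.Z siRNA. Mcm2, another subunit of the same hexamer, lay at 45.3, 48.4, 37.7 and 47.1. Thus the promoters of these MCM genes stood far apart, in the same order in every list. Mcm4 lay between 89.2 and 97.0, Mcm6 between 85.8 and 93.0, Mcm5 between 79.0 and 91.6, and Mcm7 between 72.0 and 81.5. Each of these 4 subunit genes had its highest value in WT. Gmnn, which encodes the licensing inhibitor geminin, lay between 95.7 and 98.6, while Cdt1, whose product geminin binds, lay between 78.5 and 86.8. Of the origin recognition genes, Orc1 lay between 88.9 and 93.6, and Orc6 stood at 95.4 in WT, 94.2 in null, 83.2 with NT siRNA and 84.4 with H2A.Z siRNA. Orc6 separated the untransfected lists from both transfected lists. Cdc6, the MCM loader, lay at 81.6, 91.1, 93.6 and 89.9. It was the member with the largest higher value in null, by 9.53 points, just under the 10 points used as a call.

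The replisome group held the promoter with the highest mean percentile of the set. Rfc3, a subunit of the clamp loader, lay at percentile 99.2 in WT, 99.5 in null, 99.9 with NT siRNA and 99.02 with H2A.Z siRNA, with its summit 15 bp upstream of the TSS in all 4. Rfc4, from the same complex, lay between 94.8 and 97.3. Both clamp loader genes were therefore near the top of every list. Pcna, which encodes the sliding clamp they load, was less steady, at 98.0, 96.5, 81.0 and 92.1. Its value with NT siRNA was 11.1 points under that with H2A.Z siRNA. Gins1 lay at 90.2, 80.3, 71.9 and 74.3, whereas Gins2, which encodes another GINS subunit, lay between 92.9 and 95.9. Cdc45 lay between 70.3 and 82.2 and Mcm10 between 92.5 and 98.3. In the primase and polymerase alpha genes, Prim1 lay at 90.8 in WT, 90.8 in null, 97.6 with NT siRNA and 97.7 with H2A.Z siRNA, and Pola2 was the lowest of the group, from 63.4 to 75.4.

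Of the 4 genes of nucleotide synthesis, Tyms (thymidylate synthase) had the smallest range of all 49 members, from 95.8 to 96.3. Tk1 (thymidine kinase) was among the least steady, at 44.2 in WT, 34.7 in null, 21.7 with NT siRNA and 40.9 with H2A.Z siRNA. The last value belongs to a summit 1433 bp downstream of the TSS. In lists of equal length Tk1 lay at 43.2, 34.7, 15.4 and 22.4. The subunits of ribonucleotide reductase differed, with Rrm1 between 84.9 and 90.8 and Rrm2 between 61.4 and 73.3. Rrm2 had the widest TSS peak of the set in WT, at 2216 bp.

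The D-type cyclin genes, which respond to growth factors, stood lowest in WT. Ccnd1 lay at percentile 22.7 in WT, 17.1 in null, 6.33 with NT siRNA and 20.8 with H2A.Z siRNA, and its peak was narrow, at 410, 282, 417 and 535 bp. Ccnd2 lay at 30.02, 31.4, 21.5 and 25.1. In lists of equal length Ccnd2 lay at 28.8, 31.4, 15.1 and 1.70, so the order of its siRNA values depends on list length. In contrast, the E2F target cyclin Ccne2 lay between 86.2 and 92.3, Ccne1 between 69.1 and 77.998, Cdk2 between 74.2 and 82.5, and the phosphatase gene Cdc25a between 87.2 and 95.1. The D-type cyclin promoters had few fragments at the summit. At Ccnd1 the summit in WT held 78 fragments, 8.82 times the genome-wide background, and at Ccnd2 92 fragments, 10.4 times it, where the median of members was 22.8. The local background in WT was 3.04 times the genome-wide level at Ccnd1 and 3.33 times at Ccnd2. The median of members was 2.55 in WT, 3.70 in null, 6.91 with NT siRNA and 6.34 with H2A.Z siRNA. Over all protein-coding TSS peaks the medians were 2.02, 2.58, 4.82 and 4.397. The transfected lists therefore had a higher local background at promoters in general than the untransfected lists, and the part of transfection, batch or library in this cannot be told apart.

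**Figure D2:**
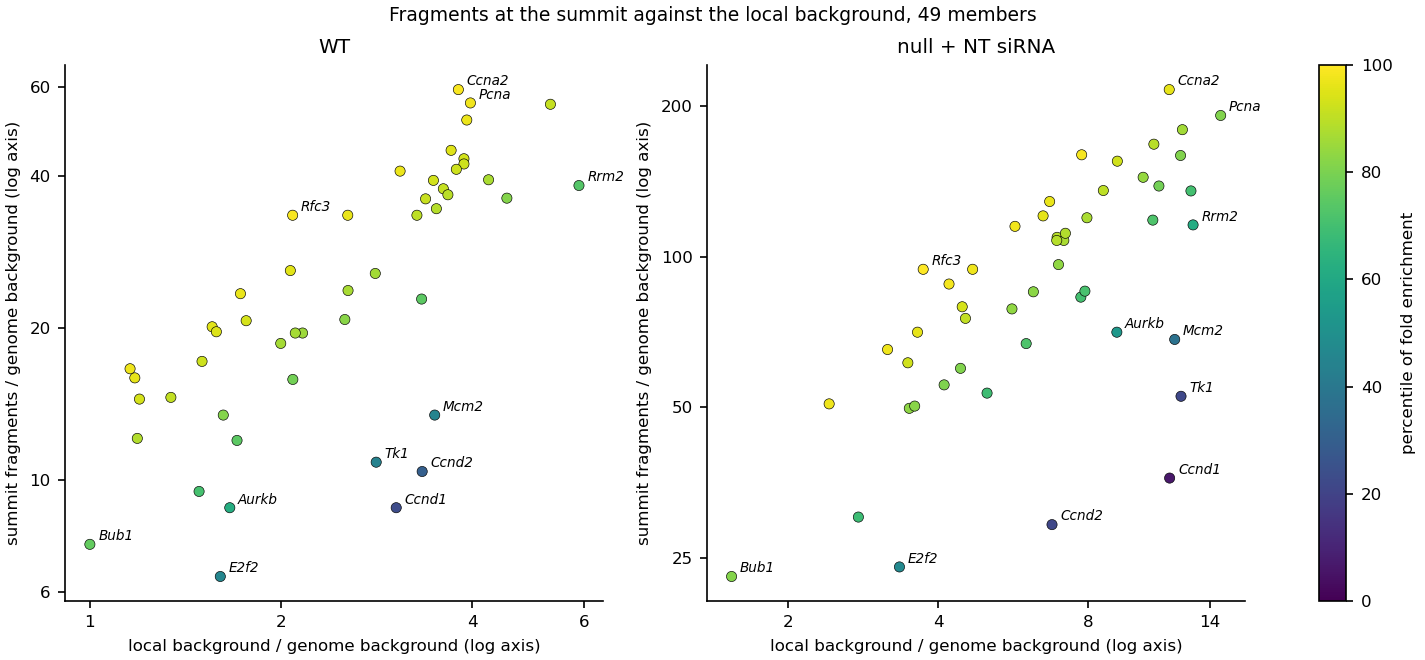
Summit fragments over the genome-wide background (y axis, log scale) against local over genome-wide background (x axis, log scale) for the 49 members in the WT list and the NT siRNA list, coloured by percentile of fold. Ccnd1, Ccnd2, Tk1 and Mcm2 have few summit fragments for the height of their local background, and the axes reach higher values in the NT siRNA panel.

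Most G2/M and mitosis genes were in the upper part of each list. Ccna2 (cyclin A2) lay between 95.3 and 99.2, Cdc25c between 96.8 and 98.5, Ccnb2 between 91.7 and 97.5, and Aurka between 93.8 and 96.9. Ccnb1 lay between 80.8 and 86.5 and its kinase partner Cdk1 between 82.1 and 88.4. Cdc20, an activator of the anaphase-promoting complex, lay between 87.6 and 92.3, Plk1 between 83.4 and 90.2, and Top2a, the mitotic topoisomerase, between 84.9 and 93.6. The lowest of the group was Aurkb, from 53.4 to 61.9, far below Aurka in all 4 lists. Mki67 lay at 74.9 in WT, 79.0 in null, 68.6 with NT siRNA and 79.7 with H2A.Z siRNA. Bub1, a spindle checkpoint kinase gene, lay at 75.9, 81.4, 81.3 and 98.3. The H2A.Z siRNA value of Bub1 stood apart from its other 3 values, which were within 6 points.

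In the comparison of null with WT, 0 of 49 members were higher by 10 percentile points or more, where 6.0% of all protein-coding TSS peaks were, and 2 of 49 were lower, where 11.6% were. The median change was −1.46 points for members and −1.53 points for all protein-coding TSS peaks. Any higher value in null was seen for 16 of 49 members, or 32.7%, against 36.4% of all. A member above the 90th percentile in WT, as 25 of 49 were, could not be called higher on this scale. Ranked among protein-coding TSS peaks alone, where the members have more room, 5 of 49 were higher by 10 points or more, against 12.3% of all, and 7 were lower, against 11.9%.

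By fragments, each summit pileup was divided by the genome-wide background of its list, and the ratio between lists was taken relative to the median of all protein-coding TSS peaks, which was 0.65 in log2 for null over WT and −0.31 for H2A.Z siRNA over NT siRNA. In null over WT, 1 member was past 1.5-fold higher and 2 were past 1.5-fold lower, against 1.77% and 5.38% of all protein-coding TSS peaks. Rfc4 was the higher one, with 174 fragments in WT and 256 in null, a relative signal of 1.62-fold (95% exact interval 1.33 to 1.98, counting error only). Ccnb2 was lower at 0.571-fold (0.427 to 0.758), and E2f2 at 0.659-fold with an interval of 0.418 to 1.02 that includes 1. Ccnb2 and E2f2 thus had less promoter signal in null relative to other promoters, though for E2f2 the difference was within counting error. The counting interval left out 1 for 11 of 49 members, or 22.4% against 21.5% of all protein-coding TSS peaks. Mcm3 at 1.41-fold, Mcm4 at 1.37-fold, Cdk1 at 1.36-fold, Mcm2 at 1.31-fold and Mcm10 at 1.27-fold were among those higher in null, and Top2a at 0.681-fold was lower. Higher and lower here are relative to the median of all protein-coding TSS peaks, so a difference shared by promoters at large is left out. Before that centring the log2 ratio of null over WT was 1.35 at Rfc4, 0.094 at Top2a, 0.045 at E2f2 and −0.16 at Ccnb2.

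With H2A.Z siRNA against NT siRNA, both in null cells, 6 of 49 members were higher by 10 percentile points or more, where 14.5% of all protein-coding TSS peaks were, and 0 of 49 were lower, where 2.59% were. The 6 were Tk1 by 19.2 points, Bub1 by 17.0, Ccnd1 by 14.5, Mki67 by 11.1, Pcna by 11.1 and Rbl1 by 10.5. For Tk1 the values belong to different places, as its summit was 79 bp downstream of the TSS with NT siRNA and 1433 bp downstream with H2A.Z siRNA. The share of members, 12.2%, was near that of promoters at large. The median change was 1.60 points for members and 2.13 for all, but in lists of equal length it turned, to −1.25 and −0.987, with 15 of 48 members higher, or 31.2% against 41.5% of all. In those lists of equal length, 2 of 48 members stayed higher by 10 points, Bub1 by 18.02 and Pcna by 10.2, where 4.76% of all protein-coding TSS peaks were. With that choice 1 member, Ccnd2, was lower, at a change of −13.4 points, where 11.1% of all were, and Ccnd1 had no TSS peak left in either siRNA list. Ranked by −log10 p, Pcna differed by 0.545 points, Mki67 by 6.40 and Rbl1 by 6.499, while Bub1, Tk1 and Ccnd1 were higher by 16.2, 11.1 and 10.5. Ranked among protein-coding TSS peaks alone, Tk1 differed by 5.52 points and Ccnd1 by 3.30.

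By relative fragments, 1 member was past 1.5-fold higher with H2A.Z siRNA and 0 were lower, against 2.32% and 3.02% of all protein-coding TSS peaks. The one was Bub1, with 89 fragments under NT siRNA (95% Poisson interval 71.5 to 110) and 602 under H2A.Z siRNA (555 to 652). Given the depths of the lists this is a relative signal of 1.82-fold (1.46 to 2.31). Bub1 is also the member whose higher rank under H2A.Z siRNA was kept under every other ranking tried. The counting interval left out 1 for 20 of 49 members, or 40.8% against 38.0% of all. Rfc3 at 0.699-fold and Ccna2 at 0.841-fold had less relative signal with H2A.Z siRNA, and Cdc45 at 1.32-fold, Rbl1 at 1.30-fold and E2f1 at 1.26-fold had more, as did Tk1 at 1.26-fold, again between summits at different places. Before centring the log2 ratio was 0.56 at Bub1, 0.088 at Cdc45, 0.069 at Rbl1, 0.029 at E2f1, 0.026 at Tk1, −0.56 at Ccna2 and −0.82 at Rfc3.

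**Figure D3:**
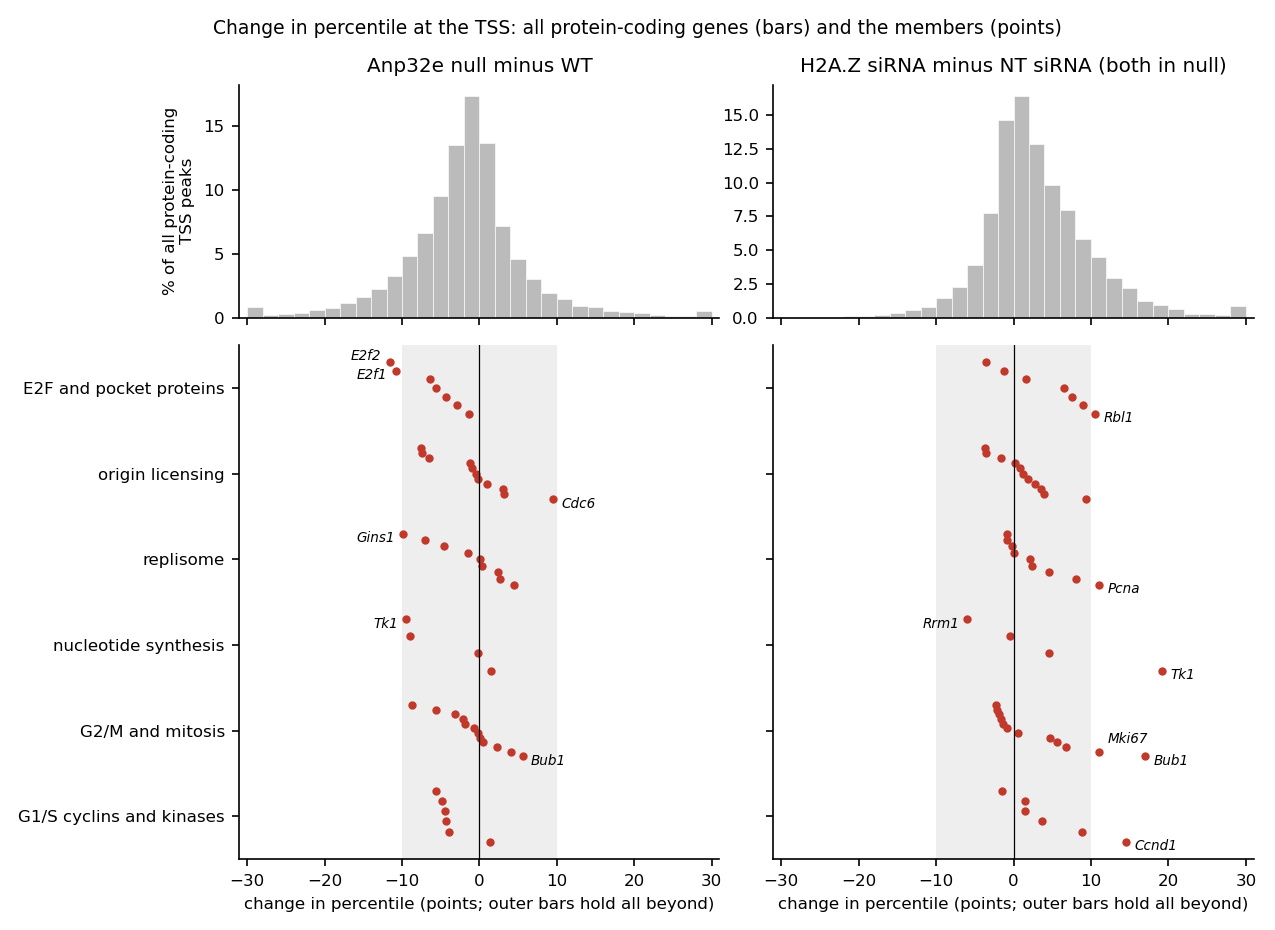
Change in percentile (x axis, points) of null minus WT on the left and H2A.Z siRNA minus NT siRNA on the right, with bars for the share of all protein-coding TSS peaks and points for the members by role. The grey band marks changes under 10 points, and the labelled points outside it are E2f1 and E2f2 on the left and Tk1, Bub1, Ccnd1, Mki67, Pcna and Rbl1 on the right.

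Of the 58 further pathway genes, 1 was higher and 3 were lower in null by 10 points or more, or 1.72% and 5.17% against 6.0% and 11.6% of all protein-coding TSS peaks. Under H2A.Z siRNA 3 were higher and 0 lower, or 5.17% and 0% against 14.5% and 2.59%. These shares were below those of all, and the genes are named to account for the counts. The scale leaves these genes less room, as 28 of 58 stood at the 90th percentile or above in WT, or 48.3% against 30.5% of all. Under NT siRNA it was 25 of 58, or 43.1% against 27.0%, and a gene above that percentile could not be called higher. The higher one in null was Ccnd3, the remaining D-type cyclin, at percentile 9.56 in WT and 34.8 in null. The lower ones were Rnaseh2a at 51.7 and 28.7, Lin54 at 69.6 and 57.0, and Pkmyt1 at 66.5 and 54.7. Lin54, the CHR-binding subunit of DREAM, was again among those that were higher with H2A.Z siRNA, at 46.9 and 57.3, together with the primase subunit gene Prim2 at 51.6 and 68.3 and the kinesin gene Cenpe at 63.4 and 77.7. None of these comparisons carries a replicate error.

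Peaks at member promoters had a median width of 1237 bp in WT, 1234 bp in null, 1154 bp with NT siRNA and 1428 bp with H2A.Z siRNA. All protein-coding TSS peaks had medians of 1166, 1137, 1110 and 1321 bp. With H2A.Z siRNA 47 of 49 members were wider than with NT siRNA, or 95.9% against 95.1% of all, so the widening was general, and the H2A.Z siRNA list was also 4.59 times as deep. The Tk1 peak went furthest, from 904 bp with NT siRNA to 2364 bp with H2A.Z siRNA, and Pola2 went from 1038 to 2176 bp. In null against WT, 18 of 49 members were wider, or 36.7% against 40.5% of all.

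Summits lay close to the start site. The summit was within 300 bp of the reference TSS for 40 of 49 members in WT, 41 in null, 40 with NT siRNA and 41 with H2A.Z siRNA, or 81.6% in WT against 73.4% of all. In each list 24 of 49, or 48.98%, lay downstream of the TSS, against 57.6%, 55.2%, 54.3% and 55.2% of all protein-coding TSS peaks in WT, null, NT siRNA and H2A.Z siRNA. Some summits did not move at all, such as those of Mcm4 at 146 bp upstream, Plk1 at 131 bp upstream and Rfc3 in all 4 lists. Between null and WT the summit moved by 100 bp or more for 9 of 49 members, or 18.4% against 24.4% of all, and between the siRNA lists for 4 of 49, or 8.16% against 20.4%.

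The largest move was at Tk1, where the summit lay 80, 192 and 79 bp downstream of the TSS in WT, null and NT siRNA and 1433 bp downstream with H2A.Z siRNA. Its H2A.Z siRNA peak, on chromosome 11 from 117824097 to 117826460, spans both positions. At Ccne1 the summit lay 430 bp upstream in WT, 86 bp upstream in null, 7 bp downstream with NT siRNA and 84 bp upstream with H2A.Z siRNA, inside peaks of 1531 to 1699 bp. Pcna, Rb1 and Rbl1 moved by 281, 274 and 253 bp over the lists. At Rbl1 the E2F word printed above was 193.5 bp from the summit in WT, 268.5 bp in null, 265.5 bp with NT siRNA and 15.5 bp with H2A.Z siRNA. A few members had their summit at another start site of the same gene. E2f3 had it 1781 to 1886 bp upstream of the reference TSS, within 214 bp of the TSS of transcript E2f3-201, and Mcm7 had it 1171 to 1235 bp downstream, within 54 bp of the TSS of Mcm7-206. Cdc6 had it 426 to 428 bp upstream, within 78 bp of the TSS of Cdc6-201. At Ccne2 it lay 459 to 650 bp upstream and 80 to 271 bp from the TSS of Ccne2-204.

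**Figure D4:**
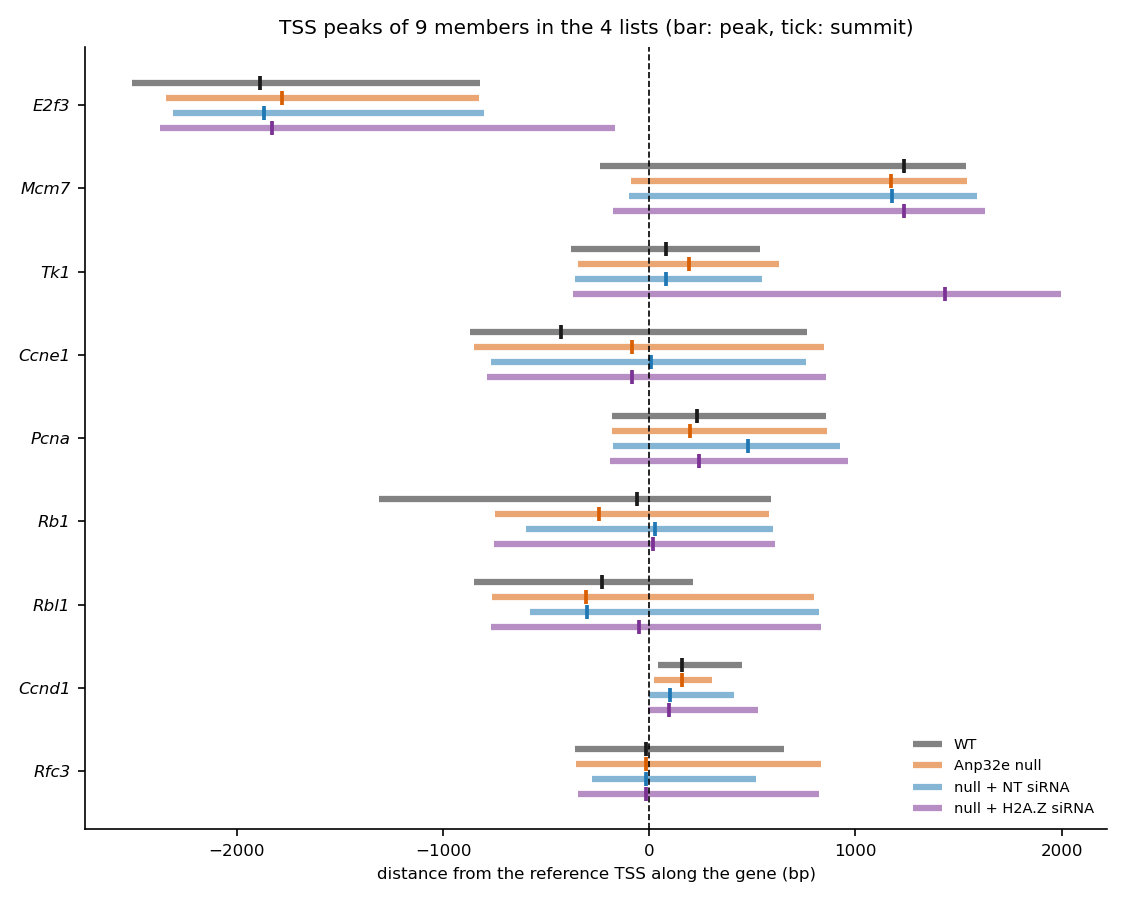
TSS peaks of 9 members drawn as bars along the gene (x axis, bp from the reference TSS, upstream to the left), with a tick at the summit and 1 colour per list. Rfc3 keeps its summit in place, Tk1 gains a long downstream part with H2A.Z siRNA, and E2f3 and Mcm7 lie away from the reference TSS.

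A promoter shared with a neighbour could carry signal of either gene. A TSS of another gene on the opposite strand lay within 1 kb for 14 of 49 members, or 28.6% against 18.6% of all protein-coding genes. The partner was protein-coding for 8 of them, in the pairs Aurka and Cstf1, Cdc45 and Ufd1, Cdk2 and Pmel, Mcm4 and Prkdc, Mcm7 and Ap4m1, Orc1 and Prpf38a, Orc6 and Vps35, and Tk1 and Afmid. For these members a peak cannot be assigned to 1 gene of the pair.

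Away from start sites, 151 distal sites lay in the gene body or within 10 kb of a member, at 46 of the 49 members. They are merged peaks of the 4 lists that keep 1 kb away from every annotated TSS, and 66797 such sites lie near protein-coding genes as a whole. Rb1 had the most, with 9 sites over a gene of 142150 bp, followed by E2f7 and Cdc6 with 7 each, while Rfc3, Prim1 and Ccnb1 had none. Of the 151 sites, 78 were called in WT, 66 in null, 98 with NT siRNA and 134 with H2A.Z siRNA, or 51.7%, 43.7%, 64.9% and 88.7%. Over all distal sites the shares were 57.4%, 56.3%, 63.3% and 83.9%. The count of sites called in null near these genes was therefore below that in WT, whereas both shares were close together for all genes.

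Sites called in all 4 lists numbered 52, or 34.4% against 38.9% of all distal sites. The strongest was in Cdc45 at chr16:18795123-18796135, 16343 bp downstream of the TSS and overlapping a coding exon, at percentile 95.6 in WT, 94.8 in null, 84.3 with NT siRNA and 95.1 with H2A.Z siRNA. An intergenic site near Rfc4, at chr16:23136300-23137487 and −9156 bp from the TSS, lay at 69.0, 90.4, 89.6 and 92.9, lower in WT than in the 3 null lists. An intronic site of Rb1 at chr14:73293545-73294132 lay at 85.9, 91.7, 56.6 and 93.8. The median of sites called in all 4 lists was percentile 46.2, 36.8, 45.7 and 53.1, below the promoters of the members.

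Most sites called in some lists only stood low in those lists, with a median percentile of 9.02 for WT alone, 12.0 for H2A.Z siRNA alone, 15.3 under NT siRNA and 22.9 under H2A.Z siRNA for sites in both siRNA lists, and 19.4, 18.97 and 32.9 in null, NT siRNA and H2A.Z siRNA for sites in all 3 null lists but not in WT. In WT alone there were 9, or 5.96% against 6.83%, and the strongest, in Rrm1 at chr7:102444415-102444833, stood at percentile 43.5 with 70 fragments. In all 3 null lists but not in WT there were 5, or 3.31% against 6.03%. Among them a site in an intron of Bbs7, at chr3:36579031-36579431 and −7081 bp from the Ccna2 TSS, held 26, 29 and 102 fragments in null, NT siRNA and H2A.Z siRNA. In E2f7 a site over a coding exon at chr10:110782417-110782925 held 29, 22 and 90 fragments. Near Cdc45 the third of this pattern lay in an intron of Ufd1 at chr16:18816916-18817545. Called with NT siRNA but not H2A.Z siRNA were 7, or 4.64% against 4.05%. The strongest, −4584 bp from the Ccne1 TSS, held 83 fragments under NT siRNA and was also called in WT, with 78 fragments. In lists trimmed to equal length the count of this pattern went from 7 to 19 of 119 sites, against 9.35% of all distal sites.

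Called with H2A.Z siRNA alone were 32 sites, or 21.2% against 17.3%, led by an intronic site of Rb1 at chr14:73313311-73313682 at percentile 46.4, then 1 over a coding exon of Mki67 at 43.6 and 1 in an intron of Rbl1 at 35.7. In lists of equal length the count was 10 of 119, against 5.93%. A pattern picked after its count was seen is that of sites in both siRNA lists and neither untransfected list, which numbered 28, or 18.5% against 10.7% of all distal sites. The strongest lay 24544 bp downstream of the Cdc25c TSS, at chr18:34726722-34727257, with percentile 85.05 under NT siRNA and 70.4 under H2A.Z siRNA. An intronic site of Rb1 at chr14:73243990-73244784 and an intergenic site beyond Orc6 at chr8:85311661-85312031 followed. In lists of equal length the count was 14 of 119, against 7.63%. These sites split by transfection, and transfection, batch and library cannot be told apart.

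**Figure D5:**
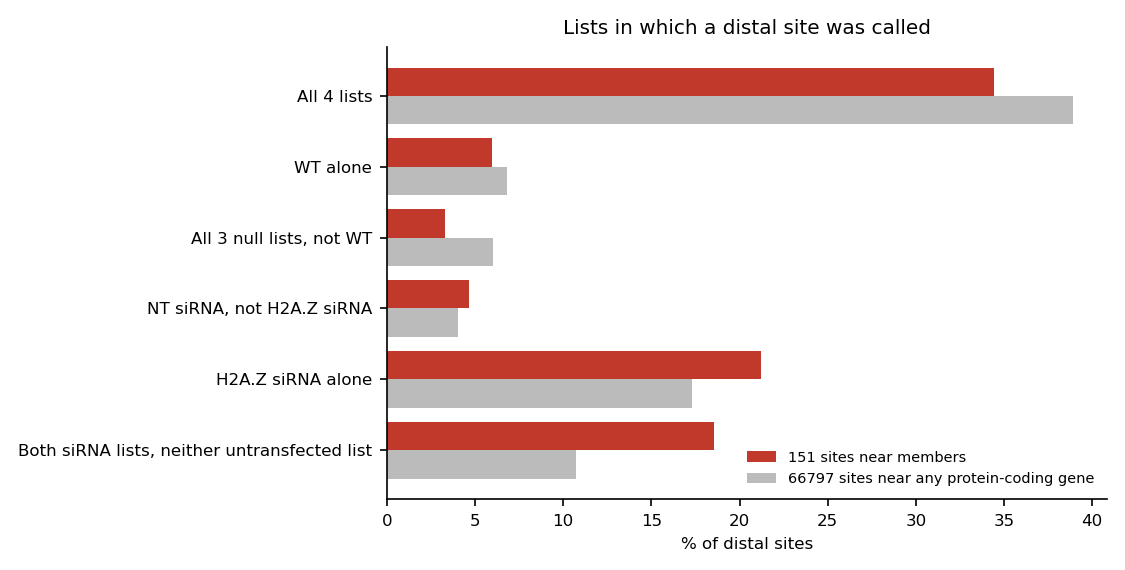
Share of distal sites (x axis, %) by the lists in which they were called, for the 151 sites near members and the 66797 sites near any protein-coding gene. The bar of members is longer than that of all genes for sites called in both siRNA lists and neither untransfected list, 18.5% against 10.7%, and shorter for sites in all 3 null lists but not WT, 3.31% against 6.03%.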

How the data were processed

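ATAC-seq libraries were grouped by their labels, and the 4 deposited peak lists, 1 per group, were analysed. Alignment was to mm10 in Bowtie2 2.3.4.1, duplicates were taken out with Picard 2.18.23, and the authors ran MACS2 2.1.4 on merged libraries, 1 call per group. The deposited fold enrichment is a ratio with a pseudocount of 1, and the authors gave p-values and q-values as −log10 values. The last deposited column is the summit offset in bp. Lists were kept to chromosomes 1 to 19, X and Y.

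Summit pileup and local background were solved from the fold and the −log10 p-value under the Poisson model, and 100% of pileups came within 0.05 of a whole number. On simulated data, 100% of 20000 pileups were returned. The most frequent background of a list stood for its depth. The reference TSS was the best APPRIS-tagged protein-coding transcript of GENCODE M21, and the TSS peak was the overlapping peak of highest fold within 1 kb. A merged site touching any annotated TSS window was left out of the distal sites. No test was made, since each group has 1 list. Intervals are exact 95% Poisson or binomial intervals for counting error only, and fragments are not corrected for shared origin beyond duplicate removal.

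The members and lists were chosen with earlier results of these data known. Named genes were the 5 largest higher and lower changes of each comparison, the 3 highest and lowest in WT, the ends of each role group, the largest summit moves and the 3 strongest distal sites of each pattern, and all members are given by their range. Alternatives were other windows, start sites, q thresholds, equal list lengths, rankings, centrings and call thresholds. Work used Python 3.11.15, NumPy 2.4.6, SciPy 1.17.1, pandas 2.3.3 and matplotlib 3.10.9, and sequences came from RefSeq GRCm38.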

Additional observations from a re-analysis of the deposited data

How the results depend on the processing

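No paired analysis was possible because the merged lists carry no replicate number, and for the same reason no replicate could be left out. Of 136 values of the main results under other settings, 104 stayed near the reported value (counts within 1.5 times, medians within the 95% order-statistic interval over members), 31 moved and 1 changed direction. The last was the members' median rank change for H2A.Z siRNA against NT siRNA, which went from 1.60 to −1.25 points in lists of equal length. Counts and levels have no sign, so most of these values could not change direction. All 49 members kept a TSS peak in all 4 lists with a window of 500 bp, with all annotated start sites and with a −log10 q of 5 or more, and 48 did in lists trimmed to equal length, where Ccnd1 was without one in both siRNA lists.

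Ranked by −log10 p, the members' median percentile was 93.3 in null, 93.9 with NT siRNA and 94.6 with H2A.Z siRNA. Ranked among protein-coding TSS peaks alone, it was 70.04, 65.2, 58.9 and 64.6 in WT, null, NT siRNA and H2A.Z siRNA, where all genes have 50 by construction. In null against WT, members called higher by rank were 1 at the stricter q (8.77% of all protein-coding TSS peaks), 5 among TSS peaks alone (12.3%) and 2 at a call of 5 points (13.0%), and members called lower were 7 among TSS peaks alone (11.9%) and 14 at 5 points (27.5%). For H2A.Z siRNA against NT siRNA, members called higher were 2 in lists of equal length (4.76%), 3 by −log10 p (8.54%) and 14 at 5 points (32.8%), and members called lower were 1, 4 and 1 in lists of equal length, among TSS peaks alone and at 5 points (11.1%, 9.34% and 8.03%). Of the single calls, E2f1 changed by −1.91 points by −log10 p and E2f2 by −3.85 points among TSS peaks alone and −9.94 at the stricter q. Tk1 (7.07), Mki67 (7.29) and Rbl1 (9.70) were under 10 points in lists of equal length, Tk1 (5.52) and Ccnd1 (3.30) among TSS peaks alone, while Bub1 ranged from 16.2 to 40.1 points over the alternatives.

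Relative signal centred on all shared sites gave 1 member lower in null (4.18% of all). At a lower call threshold it gave 6 higher and 5 lower in null (11.0% and 15.2%), and 5 higher and 2 lower with H2A.Z siRNA (11.5% and 11.6%). With a flank of 5 kb, of 117 distal sites 3 were in all null lists alone and 3 with NT siRNA without H2A.Z siRNA (6.06% and 4.11% of all distal sites). The stricter q gave, of 135, 3 in WT alone and 3 with NT siRNA without H2A.Z siRNA (3.51% and 3.02%). Lists of equal length gave, of 119, 15 in WT alone, 19 with NT siRNA without H2A.Z siRNA, 10 with H2A.Z siRNA alone and 14 in both siRNA lists alone (9.53%, 9.35%, 5.93% and 7.63%). The cause of these moves was not tested. A summit of 34 fragments limits E2f2 in null, and its relative signal against WT is within counting error.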
